A study of Mus musculus with 8 samples.

Results

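Transcripts that mark astrocytes, neurons and oligodendrocyte precursor cells were followed in RNA from isolated microglia. They form 32 genes, picked by name: 11 known from astrocytes, 11 from neurons and 10 from oligodendrocyte precursors. All 32 were found among the 46983 genes of the deposited table, all had reads, and all passed the filter on low values that left 22546 genes to test. The question for these genes was how much RNA of other neural cells each library held, and whether it went with the named groups.

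Total RNA was sequenced in 8 libraries of brain microglia taken from the corpus callosum, the large white matter tract between the hemispheres. All mice were FvB/C57BL6 hybrids carrying Cx3cr1-CreER, a tamoxifen-dependent Cre recombinase driven by a promoter that is active in microglia and other macrophages. In the WT mice loxP sites flanked Qk on 1 allele only (QKLoxP/+), so the controls carried a floxed allele too, and in the Qk-KO mice on both (QKLoxP/LoxP). Every mouse received tamoxifen at 8 weeks of age and then a diet of 0.2% cuprizone for 6 weeks, a copper chelator toxic to oligodendrocytes that causes loss of myelin. The names give 4 libraries as WT and 4 as Qk-KO, numbered 1 to 4 in each. The labels disagree on genotype: the genotype field calls named WT 2 and 3 Qk-KO and named Qk-KO 1 and 3 WT. Libraries are therefore called by their names, and no difference is assigned to a genotype. Separate animals are not stated for the libraries, and p-values cover only the scatter among these libraries, which may be technical.

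Astrocytes take up glutamate and buffer ions and water around synapses, and under demyelination they become reactive and raise intermediate filaments. Oligodendrocyte precursors divide, migrate into demyelinated white matter and mature into the cells that make new myelin. The corpus callosum holds mainly axons and few neuronal cell bodies. Microglia sit among all of these cells, engulf debris from them, and are separated from them by dissociation and selection.

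The libraries held roughly 43.9 M to 69.7 M assigned reads, and the size factors did not overlap between the names, running from 1.05 to 1.26 for named WT and from 0.753 to 0.997 for named Qk-KO. Depth therefore moved with the names, and its part in the differences reported here was not tested. Qk, the targeted gene, had log2 values of 15.50, 15.38, 15.41 and 15.37 over named WT 1 to 4, then 15.59, 15.40, 15.69 and 15.29 over named Qk-KO 1 to 4. Its difference was 0.08 (95% interval -0.11 to 0.27, limma adjusted p = 0.819), so its total did not separate the names. A total over the whole gene does not show whether the flanked exons were removed. The microglia list, 12 genes such as Cx3cr1 and P2ry12, summed to 27230 to 37900 CPM, which fits the labelled cell type. CPM here is the deposited value taken off the log2 scale and scaled to a common library sum. Folds between libraries are ratios of CPM, while differences, tests, overlaps and counts of highest or lowest libraries use the log2 values as deposited. The microglia list stood at 35100 ± 1966 CPM (named WT) against 29960 ± 1911 CPM (named Qk-KO), each a mean ± SD with n = 4, and 4 of its 12 genes were lower in named Qk-KO without overlap, against 2.7% of all tested genes. The authors' deposited table called 3 of the 12, Csf1r, Cx3cr1 and Ctss, against 1.22% of all genes with an adjusted p. P2ry12 had the largest log2 fold change of the 12 there, at -1.15, and was not called (DESeq2 adjusted p = 0.188).

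Astrocyte markers were present in every library and varied widely between libraries of the same name. Their summed level was 413, 224, 263 and 601 CPM over named WT 1 to 4, then 204, 137, 88.2 and 563 CPM over named Qk-KO 1 to 4. The libraries numbered 4 were highest in both named groups, named Qk-KO 3 was lowest, and the groups overlapped because named Qk-KO 4 lay above named WT 1, 2 and 3. The sums stood at 375 ± 171 CPM (named WT) against 248 ± 215 CPM (named Qk-KO), each a mean ± SD with n = 4, and the highest library was 6.81-fold above the lowest. In bulk RNA, fewer cells of a type and less RNA per cell cannot be told apart.

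Slc1a2, the main glutamate transporter of astrocytes (chromosome 2, 102658659 to 102790784, plus strand, GRCm38 throughout), had 164, 70.3, 87.0 and 202 CPM over named WT 1 to 4, then 71.0, 34.7, 19.7 and 213 CPM over named Qk-KO 1 to 4. It spanned 10.8-fold, and its highest library was a named Qk-KO one. Its log2 difference, named Qk-KO minus named WT, was -1.02 (95% interval -2.78 to 0.74). Slc1a3, the other astrocytic glutamate transporter (chromosome 15, 8634124 to 8710764, minus strand), had 94.9, 72.2, 78.7 and 132 CPM over named WT 1 to 4, then 62.7, 53.4, 44.5 and 117 CPM over named Qk-KO 1 to 4. Its span of 2.98-fold was the smallest of the astrocyte markers, with a difference of -0.46 (95% interval -1.13 to 0.22). Gfap, the intermediate filament of reactive astrocytes (chromosome 11, 102887336 to 102900912, minus strand), had 78.6, 34.8, 46.1 and 137 CPM over named WT 1 to 4, then 31.4, 25.0, 9.17 and 89.7 CPM over named Qk-KO 1 to 4. It spanned 14.9-fold between named WT 4 and named Qk-KO 3 and had a difference of -1.13 (95% interval -2.85 to 0.58). Aldoc, a glycolytic aldolase (chromosome 11, 78322968 to 78327781, plus strand), had 28.5, 16.2, 19.4 and 46.9 CPM over named WT 1 to 4, then 15.6, 8.08, 4.12 and 64.1 CPM over named Qk-KO 1 to 4. Named Qk-KO 4 exceeded every named WT library for Aldoc, while named Qk-KO 2 and 3 lay below all of them and named Qk-KO 1 was near the lowest, named WT 2. The difference was -0.86 (95% interval -2.81 to 1.08).

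The other 7 astrocyte markers had the same lowest library, at lower levels. They were the water channel Aqp4, the folate enzyme Aldh1l1, the gap junction protein Gja1, the transcription factor Sox9, the growth factor receptor Fgfr3, the bicarbonate cotransporter Slc4a4 and the neurotensin receptor Ntsr2. Their mean levels ran from 1.72 CPM (Sox9) to 9.07 CPM (Aqp4). All 11 astrocyte markers were lowest in named Qk-KO 3, against 16.9% of all tested genes. For 10 of the 11 the top pair of libraries were those numbered 4, against 11.5% of all tested genes. The exception was Sox9, chosen here after its values were seen, with 3.06 CPM in named WT 1 against 2.83 CPM in named WT 4. Per kilobase of annotated exon, the mean levels were highest for Gfap (13.2 CPM per kb), Slc1a3 (9.51), Slc1a2 (8.11) and Aldoc (7.71), and lowest for Sox9 (0.417).

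The promoters of the markers were searched for shared letters, as a description of sequence. Why the astrocyte markers moved together across libraries was not tested. RefSeq start sites on GRCm38.p6 gave windows of 250 bases before to 50 after the start for 22 of the 32 genes, 26 windows in all. Of 12 motifs searched on both strands, the 9-base STAT motif TTCNNNGAA is shown because it was the most frequent one in astrocyte windows relative to all windows, a choice made after the counts were seen. It was in 4 of 12 windows from 9 astrocyte markers (33.3%) and in 8.3% of all 32851 windows. It was in none of 7 neuron windows and in 1 of 7 precursor windows (Neu4). STAT3, a transcription factor that binds such sites, is known to act on Gfap in reactive astrocytes. A match of letters is a description and not a binding site. The stretches for Gfap (chr11:102897194-102897232, minus strand) and Slc1a3 (chr15:8710865-8710933, minus strand) are printed 5′ to 3′ with the motif in capitals.
Gfap: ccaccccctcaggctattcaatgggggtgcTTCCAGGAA
Slc1a3: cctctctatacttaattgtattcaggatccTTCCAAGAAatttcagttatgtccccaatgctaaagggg
The motif began 2 bases before the RefSeq start site of its window in Gfap and 96 bases before it in Slc1a3. Ntsr2 held TTCCCAGAA, 62 bases before its window's start site, and Aldoc held TTCAGTGAA and TTCCAGGAA, 124 and 83 bases before its window's start site. A gene can have several start sites: the Gfap stretch lies inside the annotated span of its gene, and the matches in Ntsr2 and Aldoc lie in stretches that are largely annotated exon. All 11 astrocyte markers had the same lowest library, so the lowest library cannot set markers with the motif apart from the rest. Only 9 of the 11 had a window to search.

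**Figure D1:**
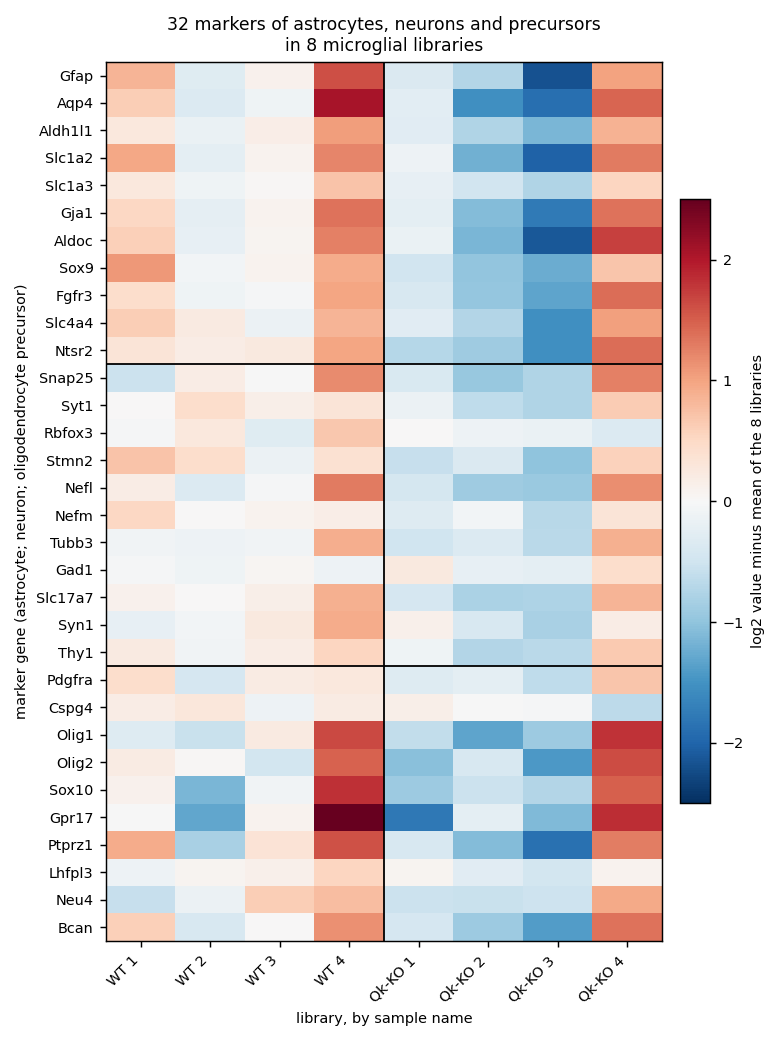
Log2 value of each of the 32 markers in each of the 8 libraries, as the difference from the marker's mean over the libraries (colour), grouped by list. The columns of named WT 4 and named Qk-KO 4 are high for most rows, named Qk-KO 3 is low for 23 of 32, and the row of Cspg4 does not follow the others.

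Neuron markers were scarce. Their summed level over 11 genes was 8.17, 8.20, 7.57 and 13.7 CPM over named WT 1 to 4, then 6.00, 4.94, 4.60 and 13.3 CPM over named Qk-KO 1 to 4, or 9.41 ± 2.88 CPM (named WT) against 7.22 ± 4.12 CPM (named Qk-KO), each a mean ± SD with n = 4. Again both libraries numbered 4 were highest, and named Qk-KO 1 to 3 lay below all named WT libraries while named Qk-KO 4 lay above 3 of them. Thy1, a surface glycoprotein of projection neurons and also of T cells (chromosome 9, 44043384 to 44048579, plus strand), had 1.26, 0.995, 1.19 and 1.62 CPM over named WT 1 to 4, then 0.928, 0.613, 0.646 and 1.74 CPM over named Qk-KO 1 to 4. Named Qk-KO 4 was its highest library, named Qk-KO 2 its lowest, and the difference was -0.43 (95% interval -1.12 to 0.26). Snap25, a part of the synaptic vesicle fusion machinery (chromosome 2, 136713453 to 136782428, plus strand), had 0.849, 1.38, 1.19 and 2.86 CPM over named WT 1 to 4, then 0.873, 0.601, 0.691 and 3.04 CPM over named Qk-KO 1 to 4. Only the libraries numbered 4 exceeded 1.38 CPM for Snap25, and the difference was -0.41 (95% interval -1.60 to 0.78).

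Nefl, the light neurofilament of axons (chromosome 14, 68083863 to 68089095, plus strand), had 0.967, 0.661, 0.810 and 2.15 CPM over named WT 1 to 4, then 0.580, 0.438, 0.426 and 1.98 CPM over named Qk-KO 1 to 4. Its difference was -0.54 (95% interval -1.71 to 0.63), and its highest libraries were again those numbered 4. Nefl shares 1108 exonic bases with Nefm on the opposite strand, 32.8% of its exons and 19.2% of those of Nefm, and the sources used here do not state the strand setting of the counting. If strand was not used in the counting, reads from that stretch of the 2 neurofilament genes cannot be told apart. Rbfox3, the gene of the NeuN antigen of neuronal nuclei (chromosome 11, 118489762 to 118911597, minus strand), had 0.938, 1.12, 0.756 and 1.58 CPM over named WT 1 to 4, then 0.888, 0.828, 0.808 and 0.779 CPM over named Qk-KO 1 to 4. Named Qk-KO 4 was low for Rbfox3, the lowest library on the log2 scale though not in CPM, and the difference was -0.31 (95% interval -0.81 to 0.19).

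The other 7 neuron markers were the vesicle protein genes Syt1 and Syn1, the microtubule genes Stmn2 and Tubb3, the neurofilament gene Nefm, the glutamate transporter Slc17a7 of excitatory neurons and Gad1, the enzyme that makes GABA. Their mean levels ran from 0.259 CPM (Nefm) to 0.928 CPM (Syt1). Per kilobase, all 11 neuron markers lay between 0.0341 (Gad1) and 0.380 CPM per kb (Thy1), below every astrocyte marker. At these levels the deposited values are shrunken towards the mean of the gene, so folds are understated. Of the 11, 9 were highest in a library numbered 4 and 7 were lowest in named Qk-KO 3. Gad1, chosen here after its values were seen, was the single marker of the 32 with a difference above 0, at 0.11 (95% interval -0.32 to 0.54).

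The precursor markers divided into Cspg4 and the rest. Cspg4, the NG2 proteoglycan of precursors and also of pericytes (chromosome 9, 56865033 to 56899870, plus strand), had 228, 242, 179 and 237 CPM over named WT 1 to 4, then 204, 190.0, 187 and 130.1 CPM over named Qk-KO 1 to 4. It was lowest in the library where 15 of the 32 markers were highest, spanned only 1.86-fold, and had a difference of -0.27 (95% interval -0.66 to 0.11). At 16.7 CPM per kb it had the highest level of the 32 markers, while Pdgfra, the receptor that defines precursors, stood at 0.0709 CPM per kb. Which cells the Cspg4 RNA came from was not tested. Summed over the 10 precursor markers the level was 259, 256, 199.9 and 290.0 CPM over named WT 1 to 4, then 218, 200.3, 194 and 183 CPM over named Qk-KO 1 to 4, which is mostly Cspg4. Without Cspg4 the other 9 summed to 30.97, 13.7, 21.2 and 53.5 CPM over named WT 1 to 4, then 13.5, 10.3, 7.23 and 53.3 CPM over named Qk-KO 1 to 4. That sum again put the libraries numbered 4 on top and named Qk-KO 3 at the bottom, 7.40-fold apart. In every library most of it was Bcan and Ptprz1, which are genes of astrocytes as well as precursors. Marker by marker, the libraries numbered 4 were the top pair for 7 of the 10, the exceptions being Pdgfra, Cspg4 and Lhfpl3.

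Bcan, a proteoglycan of the matrix around precursors and astrocytes (chromosome 3, 87987531 to 88000230, minus strand), had 17.1, 8.43, 11.1 and 25.9 CPM over named WT 1 to 4, then 7.84, 5.73, 4.06 and 29.9 CPM over named Qk-KO 1 to 4. Ptprz1, a receptor phosphatase of precursors and astrocytes (chromosome 6, 22875502 to 23052916, plus strand), had 10.4, 3.06, 6.68 and 17.0 CPM over named WT 1 to 4, then 3.80, 2.43, 1.43 and 13.6 CPM over named Qk-KO 1 to 4. Both were highest in the libraries numbered 4 and lowest in named Qk-KO 3, with differences of -0.68 (95% interval -2.14 to 0.78) for Bcan and -1.03 (95% interval -2.79 to 0.73) for Ptprz1. Olig1, a transcription factor of the oligodendrocyte lineage (chromosome 16, 91269772 to 91271933, plus strand), had 0.729, 0.612, 1.03 and 2.95 CPM over named WT 1 to 4, then 0.549, 0.342, 0.459 and 3.29 CPM over named Qk-KO 1 to 4. Both libraries numbered 4 were at 2.95 CPM or more for Olig1 and no other exceeded 1.03 CPM, and the difference was -0.51 (95% interval -2.21 to 1.19). The other members were Olig2 and Sox10, transcription factors of the lineage, the receptor gene Gpr17 of cells about to differentiate, Pdgfra, the sialidase gene Neu4 and Lhfpl3. Their mean levels ran from 0.112 CPM (Lhfpl3) to 1.05 CPM (Gpr17). Gpr17, named after its values were seen, had the widest span of the 32 markers at 22.1-fold, from 0.134 CPM in named Qk-KO 1 to 2.97 CPM in named WT 4.

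**Figure D2:**
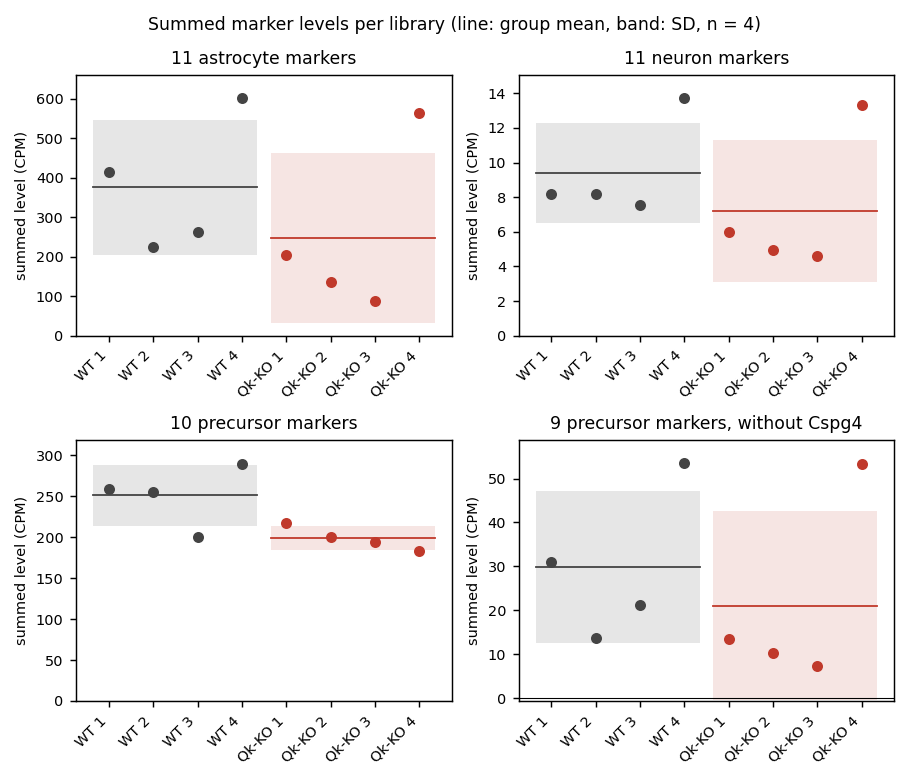
Summed level (CPM) of the astrocyte, neuron and precursor markers in each library, the precursor sum also without Cspg4 (points: libraries, line: mean of the named group, band: SD, n = 4). Named WT 4 and named Qk-KO 4 are highest in 3 panels, and the precursor sum with Cspg4 is lowest in named Qk-KO 4.

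By the medians over the 32 markers, the spread between libraries of 1 name exceeded the difference between names. Single markers could go the other way, such as Sox9 and Stmn2, whose differences exceeded the SD of either named group. The median difference of the 32 was -0.55 on the log2 scale. The median SD within the named groups was 0.774, against 0.183 over all tested genes, and the median range over the 8 libraries was 2.22 against 0.553. Named WT 4 or named Qk-KO 4 was the highest library for 28 of 32 markers (13 and 15), against 32.8% of all tested genes. Both were the top pair for 22 of 32 (68.8%), against 11.5%. Named Qk-KO 3 was lowest for 23 of 32 (71.9%), against 16.9%. The 4 markers highest elsewhere were Sox9, Stmn2 and Nefm in named WT 1 and Cspg4 in named WT 2.

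Between the named groups, 31 of 32 markers had a difference below 0, against 51.2% of all tested genes, and the groups overlapped for all 32, against 5.73% of tested genes without overlap. Median log2 differences were -0.86 for astrocyte, -0.43 for neuron and -0.43 for precursor markers, and -0.0044 over all tested genes. Markers of 1 cell type share their cells, so 31 of 32 is not 31 separate observations. None of the 32 was called by limma at an adjusted p under 0.05, where 0.00444% of all tested genes were called. At an unadjusted p under 0.05 it was 1 marker, Sox9, against 8.26% of all tested genes. Sox9 had a difference of -1.01 (SE 0.437, 95% interval -1.99 to -0.02, limma adjusted p = 0.596), the smallest adjusted p of the 32. The authors' deposited table called 0 of the 25 markers that have an adjusted p in it, against 1.22% of all genes with one, and 1 marker, Sox9, had an unadjusted p under 0.05. The authors' deposited table gives no adjusted p for the other 7. Its log2 fold changes had medians of -0.40, -0.39 and -0.26 for astrocyte, neuron and precursor markers, with 31 of 32 below 0. Taken as the log2 ratio of the linear group means, an alternative added after the data were seen, the medians were -0.51, -0.35 and -0.29, and that of Aldoc was -0.26 in place of -0.86.

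Leaving out named Qk-KO 4 changed the picture most. Without it all 32 differences were below 0, and the medians were -1.47 for astrocyte, -0.72 for neuron and -1.05 for precursor markers. The named Qk-KO libraries then lay below all named WT libraries for 17 markers (8 astrocyte, 7 neuron, 2 precursor), against 8.58% of all tested genes. At an unadjusted p under 0.05, 24 of 32 were lower, against 9.82%. Still none was called by limma, and the smallest adjusted p was 0.0741 for Ntsr2. Leaving out named WT 4 instead gave 29 of 32 below 0 and medians of -0.61, -0.22 and -0.19. Without named Qk-KO 3 the medians were -0.43, -0.28 and -0.28, and without named WT 2 the precursor median was -0.76. Without both libraries numbered 4, an alternative added after the data were seen, all 32 were below 0, with medians of -1.27, -0.58 and -0.57 and 17 markers without overlap, all lower, against 10.4% of all tested genes.

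**Figure D3:**
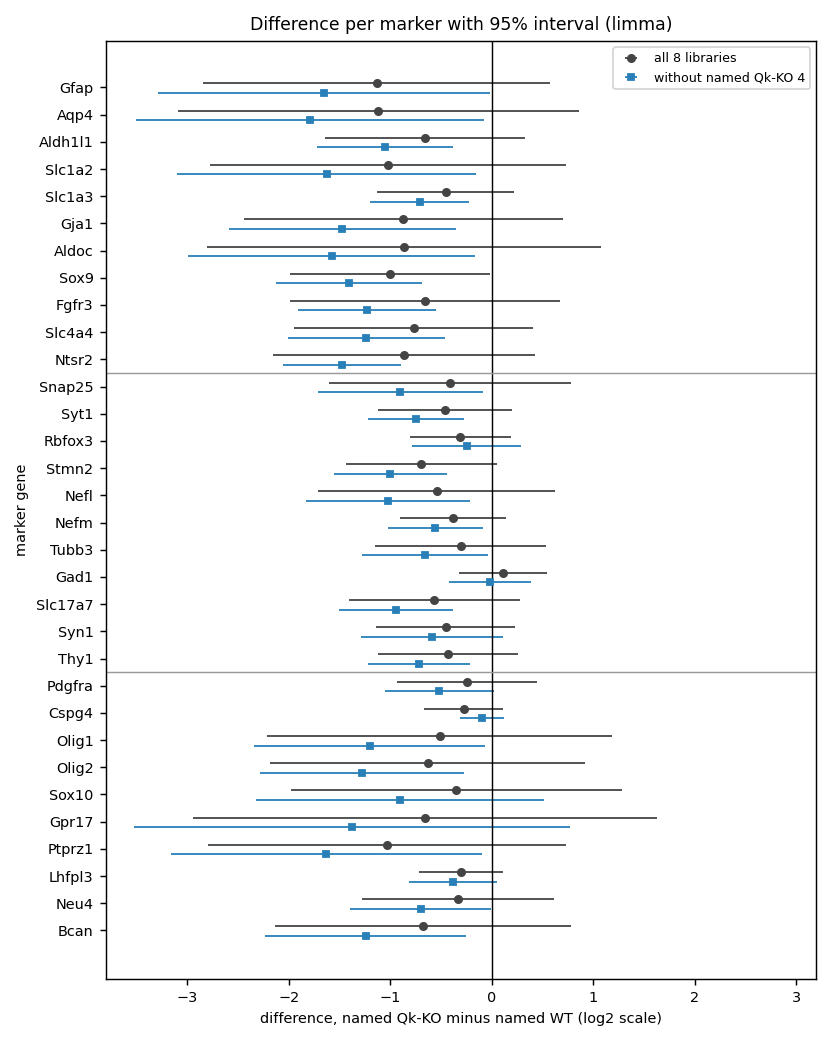
Log2 difference per marker, named Qk-KO minus named WT, with its 95% interval from limma, for all 8 libraries (circles) and without named Qk-KO 4 (squares). With all libraries, 31 of 32 points lie below 0 and only the interval of Sox9 leaves out 0. Without named Qk-KO 4 all points lie below 0.

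Grouped by the genotype field, the same libraries gave another picture. By that grouping 11 of 32 markers had a difference below 0, and the medians were 0.06 for astrocyte, 0.10 for neuron and 0.06 for precursor markers. None was called by limma, where 0% of all tested genes were called (602 of 22546 at an unadjusted p under 0.05). With the genotype field as a covariate the differences between names were the same, since each combination of name and field held 2 libraries, and the smallest adjusted p among the markers was 0.679 for Sox9.

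Further markers of the same cells, listed apart from the 32, mostly had differences below 0 as well, apart from those of committed oligodendrocytes, and none was called by limma or in the authors' deposited table. Of 18 other astrocyte genes all had a difference below 0 (median -0.71) and 17 were lowest in named Qk-KO 3. Their most abundant members were Glul, glutamine synthetase, with -0.05, and the secreted protein gene Sparcl1 with -0.87. Of 10 genes of reactive astrocytes 7 were below 0 (median -0.29), and the most abundant, the filament gene Vim and the hyaluronan receptor Cd44, had 0.35 and -0.08. Vim was lowest in named WT 2 and Cd44 in named Qk-KO 4, while 5 of the 10 were lowest in named Qk-KO 3. Which cells the Vim and Cd44 RNA came from was not tested. The differences of the 10 ran from -1.37 for S1pr3, named after its values were seen, to 0.35 for Vim. Of 22 other neuron genes 21 were below 0 (median -0.36), with -0.21 for the synaptic scaffold Dlg4. Dlg4 was the 1 gene of that list whose groups did not overlap, beside 5.73% of all tested genes. Of 14 tested precursor genes 13 were below 0 (median -0.40), with -0.18 for Xylt1, which starts proteoglycan chains, and -0.09 for the endocytic adaptor Epn2. A further one, Nxph1, is listed at 0 in every library. Of 8 genes of committed oligodendrocytes 4 were below 0 and 4 above, with a median of -0.0048. The most abundant, Tns3 and Itpr2, had 0.04 and 0.09 and spanned only 1.17-fold and 1.08-fold. For 3 of the 8 the libraries numbered 4 were the top pair, among them Bcas1, named after its values were seen. Bcas1 had 22.4 CPM in named WT 4 and 19.1 CPM in named Qk-KO 4, against at most 1.51 CPM elsewhere. Its difference was -0.61 (SE 1.49). Which cells the Tns3 and Itpr2 RNA came from was not tested.

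**Figure D4:**
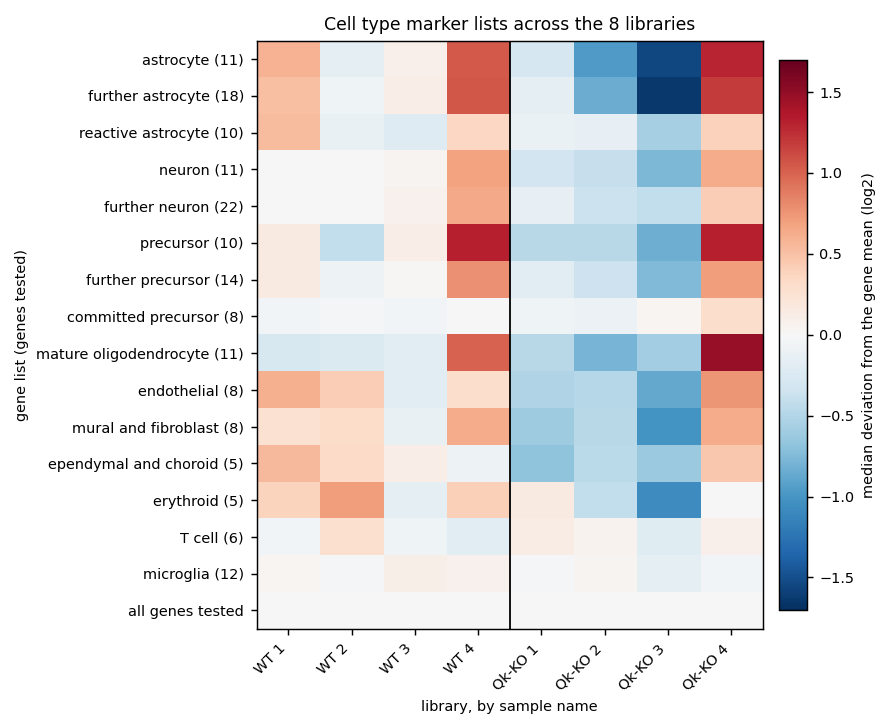
Median over each marker list of the log2 value in a library minus the gene's mean over the 8 libraries (colour), for the 3 lists of the 32 markers, the further lists and the lists of other cell types. Astrocyte, neuron, precursor, mature oligodendrocyte, and mural and fibroblast lists are high in named WT 4 and named Qk-KO 4. The microglia and erythroid lists show no such pair.

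Markers of other cell types were read beside the 32 genes. The 11 mature oligodendrocyte genes summed to 148, 139, 133 and 334 CPM over named WT 1 to 4, then 128, 129.9, 123 and 286 CPM over named Qk-KO 1 to 4, and for 10 of them the libraries numbered 4 were the top pair. The 8 mural and fibroblast genes summed to 29.98, 24.4, 16.1 and 52.7 CPM over named WT 1 to 4, then 12.9, 13.4, 8.12 and 69.9 CPM over named Qk-KO 1 to 4, highest in the same libraries, and all 8 had a difference below 0. The 5 erythroid genes had another order, at 336, 415, 225 and 354 CPM over named WT 1 to 4, then 269, 184, 117 and 263 CPM over named Qk-KO 1 to 4, highest in named WT 2. Their 5 differences were all below 0 as well, as were 4 of 5 tested ependymal and choroid plexus genes, whose sums ran from 101 to 417 CPM. Of the 8 endothelial genes 7 were below 0, with sums of 213 to 299 CPM. The 6 T cell genes, with 3 below 0, summed to 1.90 to 3.24 CPM. The part of these cells, of depth and of the library of origin in the differences of the 32 markers was not tested.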

How the data were processed

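The labels name microglia of the corpus callosum, and total RNA was sequenced in 8 libraries, 4 for each name. Per the submitters' processing notes, the authors used FastQC, HISAT2, StringTie, DESeq2 and mm10, with no versions given. The sources used here do not state the annotation release. The authors deposited 8 library columns that were read, from their values, as regularized log2 values, in which genes with few reads are shrunken towards their mean. The other deposited columns, per the file headers, are the mean normalized signal, the authors' log2 fold change, its error, the test score, and p-values before and after adjustment. No counts were in the table, so no count test was run.

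The log2 values were tested as deposited, with no pseudocount, in limma 3.58.1 (R 4.3.3; robust empirical Bayes with a trend on intensity), adjusted by Benjamini-Hochberg over all 22546 genes whose log2 value was 0 or more in 4 or more libraries, of 27486 genes with reads. Calls used an adjusted p under 0.05. The fit was tested on simulated data. Genes varied independently there, so that test does not cover shifts shared by many genes of a library. In all, 18 fits were made: 1 main fit, 7 other models, filters or groupings, 8 leaving out 1 library each and 2 leaving out several. Exon lengths and positions came from GENCODE M21 on GRCm38, where 80.7% of the table's identifiers had the same version, so levels per kilobase are approximate. Relative depth came from the smallest steps of genes detected in 1 library only.

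Members and lists were chosen with earlier results of these data known. Values in every library are given for the 4 members of each list with the highest mean signal, and would be for any called or non-overlapping member. The others are given by range and count, and of each further list the 2 genes of highest signal and any called gene are named, except 1 that is not reported here. Exons shared with another gene covered 17.6% of Lhfpl3, 13.9% of Fgfr3 and 11.0% of Aldh1l1 beside the neurofilament pair. The 12 motifs searched were the STAT motif TTCNNNGAA, the shorter NFI motif TTGGCA, the SOX motif ACAATG and its variant for SOX proteins ACAAAG, the E-box of OLIG proteins CATATG and another common E-box sequence CAGCTG, the motif of AP-1 factors TGANTCA, the myeloid PU.1 motif AGGAAGTG, the promoter element known as the TATA box TATAAA, the quaking motif ACTAAC, and by name the longer RE1 and full NFI motifs. The NFI motifs can overlap.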

Additional observations from a re-analysis of the deposited data

Results flagged for a closer look

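Within the named groups of 4, 5 of 64 combinations of marker and group had 1 library far from the other 3, by Dixon's 95% criterion, where chance gives about 1 in 20. Named WT 4 was high for Ntsr2 (7.94 on the log2 scale), Tubb3 (5.79) and Slc17a7 (6.12), and named Qk-KO 4 was high for Sox10 (6.60) and Neu4 (3.29). All 5 were high values in a library numbered 4.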

How the results depend on the processing

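No marker was called in any of the 18 limma fits, and over all fits but that of the genotype field the 3 list medians stayed below 0. By the genotype field 11 markers were below 0, no gene was called, the neuron median was 0.10, and differences turned positive for Gfap (0.044), Aldoc (0.22), Snap25 (0.25), Thy1 (0.0019), Bcan (0.036) and Olig1 (0.086). With at least 1 CPM, 19 markers were tested, all 19 were below 0 and no gene was called. Leaving out 1 library at a time, the genes called ranged from 0 to 7 (1 with all libraries), markers without overlap from 0 to 17, markers below 0 from 29 to 32, and the medians from -1.47 to -0.43 (astrocyte), -0.72 to -0.22 (neuron) and -1.05 to -0.19 (precursor). Without both libraries numbered 4, chosen after seeing the data, 17 markers did not overlap and 4 genes were called. Without named Qk-KO 3 as well, these were 17 and 8, and the share of all tested genes that were lower without overlap was 13.9%, against 2.7% with all libraries. The authors' deposited table called 173 genes. The cause of these changes was not tested. Centring each library on its median moved the median of all genes to 0.07 and the list medians to -0.79, -0.35 and -0.35.

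Libraries of the same number correlated in their deviations from the group means at r = 0.0447, 0.147, 0.246 and 0.456 across genes. Pairing was accepted only if all 4 exceeded 0.1, so the numbers were not taken to pair the libraries, although 3 of the 4 did, and named Qk-KO 1 correlated best with named WT 3 (0.106). A replicate block left 31 markers below 0 and 0 called, with 15 lower at an unadjusted p under 0.05, against 7.34% of all tested genes, and a smallest adjusted p of 0.194 (Aqp4, limma). Levels under 1 CPM, which held for 13 of the 32 markers, are strongly shrunken.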
